A study of Saccharomyces cerevisiae with 8 samples.

Results

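RNA levels after depletion of Ceg1 were described in budding yeast that keeps the XRN1 gene, by setting the 2 ceg1-AA rapamycin libraries against the 2 ceg1-AA DMSO libraries. These are 4 of the 7 libraries analysed here, from a study whose labels name 8 samples; the others carry an xrn1 disruption. The members are all open reading frames (ORFs) listed in the files, 6600 in number, of which 5879 had enough counts to be tested. Both groups are the same MATalpha strain of Saccharomyces cerevisiae: it carries tor1-1, a NAT cassette in fpr1, RPL13A fused to FKB12 with a TRP marker, and CEG1 fused to FRB with a HIS marker. Cultures grew in YPD, a rich glucose medium, at 30 °C, and were exposed for 45 min to rapamycin at 1 µg/mL or to DMSO, the solvent. Total RNA was isolated with acid phenol and made into sequencing libraries. The labels do not say whether the replicates are separate cultures, so p-values measure only the spread between these libraries, which may be technical. No group with rapamycin and an untagged CEG1 was analysed here, so the agent and the loss of Ceg1 cannot be told apart.

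In the anchor-away method, rapamycin binds an FRB tag to an FKBP12 tag, and the ribosomal protein that carries the second tag takes the nuclear target out of the nucleus. The tor1-1 allele and the loss of Fpr1 keep rapamycin from acting through its natural target, the TOR kinase. Ceg1 is the guanylyltransferase that puts guanosine on the 5′ end of nascent mRNA; Cet1 prepares that end and Abd1 methylates the cap. Caps guard mRNA against 5′ to 3′ exonucleases, such as Xrn1 in the cytoplasm and Rat1 in the nucleus, and are bound by factors for splicing, export and translation.

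The libraries held 962326 and 935651 counts in ceg1-AA rapamycin, against 1618638 and 1292180 counts in ceg1-AA DMSO. The scaling factors of edgeR's TMM method were 1.092 and 1.076 in rapamycin, against 0.754 and 0.7638 in DMSO. The other 3 libraries of the study had factors between 1.107 and 1.193, so the ceg1-AA DMSO libraries stand apart from all the rest. In a chi-square test of the counts of a replicate pair, divided by its degrees of freedom, the rapamycin pair gave 2.39 and the DMSO pair 8.51, where counting noise alone gives about 1. Between replicates, 168 ORFs were at least 2-fold apart in rapamycin and 385 in DMSO. FPR1 had 0 counts in each of the 4 libraries, which allows up to 3.04 CPM (counts scaled to library size) at the lowest depth. The alpha-factor gene MF(ALPHA)1 had 452 and 380 counts in rapamycin and 832 and 600 in DMSO. The a-factor genes MFA1 and MFA2 had 0 in each, but both are short, at 111 and 117 bases. Other genes of a cells had some counts. STE2 had 36 and 20 in rapamycin and 11 and 14 in DMSO, and BAR1 had 20 and 24 in rapamycin and 9 and 8 in DMSO. The mating type is thus taken from the labels. XRN1 was present, with 384 and 338 counts in rapamycin and 794 and 632 in DMSO.

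Anchor-away moves a protein and not its mRNA, so CEG1 (YGL130W) RNA does not measure the depletion. It stood at 62.9 and 65.6 CPM in rapamycin, against 53.3 and 47.6 CPM in DMSO, a log2 fold change of 0.34 ± 0.19 (SE) that did not pass the test (edgeR adjusted p = 0.158). Here and below, CPM is scaled by TMM, a log2 fold change is rapamycin over DMSO, and a gene is said to rise or fall when its adjusted p from edgeR's quasi-likelihood test is under 0.05. CET1 (log2 fold change 0.17 ± 0.19, adjusted p = 0.489) and ABD1 (0.24 ± 0.17, adjusted p = 0.268) did not pass either.

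By this rule 1429 ORFs rose (24.3% of those tested) and 1338 fell (22.8%), so 47.1% were called in all. A rise of at least 2-fold was seen in 591 of them (10.1% of ORFs tested) and a fall of that size in 665 (11.3%). In all 4 pairs of libraries 287 ORFs (4.88%) were higher by a factor of 2 or more, and 434 (7.38%) were lower by as much. Groups that did not overlap were common: 40.8% of ORFs were higher in every pair and 32.6% lower. These shares are the background for every count of members below. The median log2 fold change of all ORFs was 0.11. In bulk RNA, values are shares of a library, and less RNA per cell cannot be told apart from fewer cells. The split of directions moved with the scaling: total counts alone raised the median of all ORFs by 0.51 on the log2 scale and gave 2909 rises and 649 falls. A limma fit on TPM gave 3225 rises and 576 falls, DESeq2 gave 852 rises, and edgeR without rapamycin replicate 2 gave 910 rises. Scaling to the 20 mitochondrially encoded ORFs lowered the median by 0.66 and gave 150 rises and 2301 falls. A direction here thus holds against the rest of the same library. Where a whole list's median is given and its sign turns under either scaling, the text says so. Medians of parts of lists and of intron classes are given under TMM alone. Those nearer 0 than the shifts of 0.51 and 0.66 may turn.

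The ORFs that fell were among the abundant ones. Their median deposited TPM, a level per length, was 155 in DMSO, against 24.1 for the ORFs that rose and 40.0 for all tested. In rapamycin the medians were closer, at 115.4 for the ORFs that fell and 70.7 for those that rose. The DMSO libraries also enter the fold change, so part of the gap in DMSO is built in. The ORFs that fell had a median coding length of 1036.5 bases, against 1072.5 for uncalled ORFs and 1182 for all tested. Those that rose were longer, at 1515 bases. Longer ORFs hold more counts at the same TPM, which makes a change easier to call. The 100 ORFs with the most counts held 24.4% and 24.5% of the counts in the rapamycin libraries, against 34.8% and 35.0% in the DMSO libraries. The median TPM of tested ORFs was 68.0 and 68.5 in rapamycin, against 39.4 and 40.3 in DMSO. Every library of one treatment thus lay on the same side of both libraries of the other.

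Chaperone genes were among those with the largest falls. SSA2 (YLL024C), a cytosolic Hsp70, had 203 and 184 CPM in rapamycin, against 2748 and 2406 CPM in DMSO. The groups lay far apart, with a log2 fold change of -3.74 ± 0.20 (SE, adjusted p = 9.23e-06), 13.3-fold lower in rapamycin. HSC82 (YMR186W), the constitutive Hsp90, had 586 and 555 CPM in rapamycin, against 5166 and 4436 CPM in DMSO. KAR2 (YJL034W), the Hsp70 of the endoplasmic reticulum (ER), had 169 and 168 CPM in rapamycin, against 1516 and 1319 CPM in DMSO. Both were 8.42-fold lower in rapamycin, with no overlap between groups. STI1 (YOR027W), which links Hsp70 to Hsp90, had 73.3 and 79.5 CPM in rapamycin, against 570 and 463 CPM in DMSO (log2 fold change -2.76 ± 0.19, adjusted p = 9.79e-06). SSB1, a ribosome-bound Hsp70 chosen for mention after its values were seen, had 1790 and 1834 CPM in rapamycin, against 9861 and 8526 CPM in DMSO. SSA3 (YBL075C), a stress-induced Hsp70, went the other way, with 76.2 and 102 CPM in rapamycin and 30.3 and 48.7 CPM in DMSO (log2 fold change 1.20 ± 0.24, adjusted p = 0.00259). SSA1 and SSA2 are near-identical, as are HSC82 and its paralog, so their counts are uncertain one from the other.

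Of 28 cytosolic Hsp70, Hsp90 and co-chaperone genes, 19 fell and 2 rose, with a median log2 fold change of -1.58. The folding complexes TRiC and prefoldin had 12 of 14 members lower and 0 higher (median -1.01), among them CCT3 (log2 fold change -1.68) and GIM4 (-1.92). In the ER chaperone and unfolded-protein list 10 of 21 fell and 0 rose (median -0.54); PDI1, a disulfide isomerase, had 125 and 114 CPM in rapamycin, against 305 and 417 CPM in DMSO. Of 27 mitochondrial import and chaperone genes 15 fell and 2 rose (median -0.89, which was -0.48 without DMSO replicate 1, and -0.80 to -0.49 over single pairs of libraries). HSP60, the mitochondrial chaperonin, had 102 and 104 CPM in rapamycin and 698 and 607 CPM in DMSO, and its partner HSP10 had 25.7 and 22.9 CPM in rapamycin and 149 and 114 CPM in DMSO. All of these medians stayed below 0 under total counts and under mitochondrial scaling, where that of the ER list was -0.03 under total counts.

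**Figure D1:**
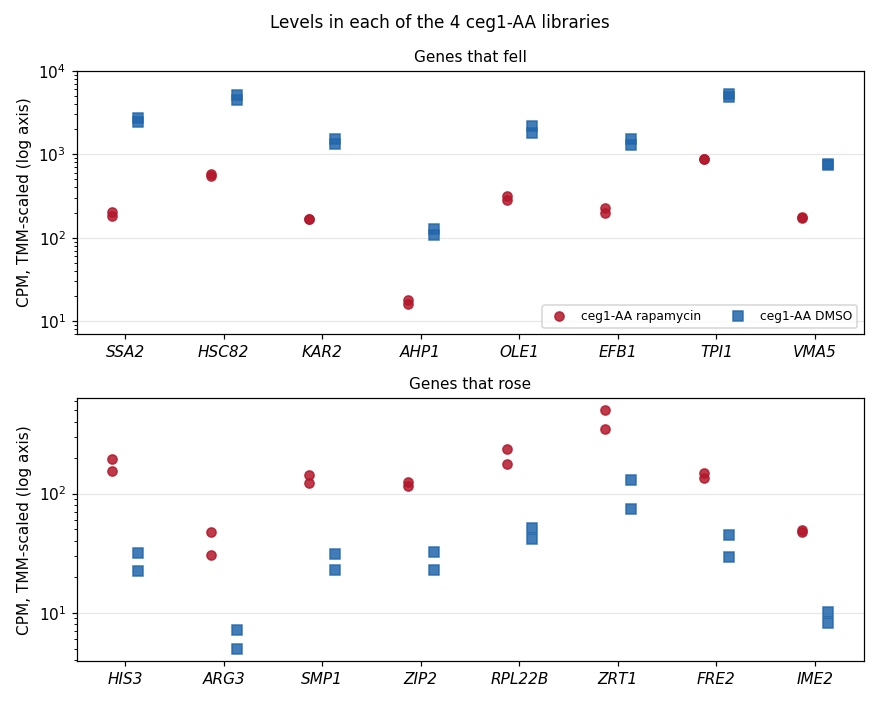
Levels of 16 genes in each of the 4 ceg1-AA libraries, in CPM scaled by TMM on a log axis; circles are the 2 rapamycin libraries and squares the 2 DMSO libraries of each gene. For the 8 genes of the upper row every rapamycin value lies under both DMSO values (SSA2 203 and 184 CPM in rapamycin against 2748 and 2406 CPM in DMSO), and for the 8 of the lower row over both (HIS3 155 and 195 CPM in rapamycin against 32.0 and 22.3 CPM in DMSO).

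Glycolytic genes fell and gluconeogenic genes rose. All 17 glycolysis genes fell, with a median log2 fold change of -1.77. TPI1 (YDR050C), triose phosphate isomerase, had 889 and 882 CPM in rapamycin, against 4797 and 5216 CPM in DMSO (log2 fold change -2.50 ± 0.18, adjusted p = 1.04e-05). TDH3, the main glyceraldehyde-3-phosphate dehydrogenase, had 5058 and 5639 CPM in rapamycin, against 21960 and 22810 CPM in DMSO. Replicates of each group were close to each other and the groups far apart. The fermentation genes PDC1, pyruvate decarboxylase, and ADH1, alcohol dehydrogenase, were 5.97-fold and 4.24-fold lower in rapamycin. ALD6, cytosolic acetaldehyde dehydrogenase, had 85.7 and 69.6 CPM in rapamycin, against 777 and 482 CPM in DMSO (log2 fold change -3.02 ± 0.25, adjusted p = 2.68e-05). HXT2, a high-affinity glucose transporter, had 93.3 and 116 CPM in rapamycin, against 639 and 749 CPM in DMSO. Its list did not fall as a whole: of 15 tested hexose transporter and sensor genes, of 19 listed, 4 fell and 2 rose. Their median was 0.03, with quartiles of -1.55 and 1.155, and it was -0.65 under mitochondrial scaling.

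In the gluconeogenesis and glyoxylate list 7 of 13 genes rose and 1 fell, with a median log2 fold change of 1.03, which was 0.34 under mitochondrial scaling. The list is scarce in DMSO (median 9.41 TPM), and against ORFs of the same level, as described below, its median was 0.265. PCK1, which starts gluconeogenesis from oxaloacetate, had 37.1 and 46.7 CPM in rapamycin, against 7.38 and 12.2 CPM in DMSO (log2 fold change 2.13 ± 0.31, adjusted p = 0.000337). JEN1, a lactate carrier, had 59.0 and 64.6 CPM in rapamycin, against 19.7 and 30.4 CPM in DMSO. ADH2, the ethanol-consuming dehydrogenase, had 28.6 and 37.8 CPM in rapamycin, against 14.8 and 7.10 CPM in DMSO. These 3 genes are low in glucose medium, and their groups did not overlap. MDH3, peroxisomal malate dehydrogenase of the same list, fell, with a log2 fold change of -1.52. In the tricarboxylic acid cycle 13 of 21 genes fell and 2 rose (median -0.76).

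For several carbon, stress and sulfur lists the median rested on which DMSO library was used. The Msn2/4 and general stress genes (8 of 36 lower, 1 higher) had a median of -0.81, which was -1.49 without DMSO replicate 1 and 0.64 without DMSO replicate 2. Trehalose and glycogen genes (4 of 20 lower, 1 higher) had -0.41, which was 0.10 under total counts, and -0.91 and 0.45 without the same libraries. The pyruvate to ethanol and acetate list (6 of 15 lower, 2 higher) had -0.52, and -0.89 and 0.23. Hexose transporters and sensors (4 of 15 lower, 2 higher) had 0.03, and -0.25 and 0.32. For sulfate assimilation and methionine (13 of 29 lower, 4 higher) the median was -0.87, and -1.43 and 0.18. HXK1, a hexokinase of the glycolysis and stress lists, had 85.7 and 109 CPM in rapamycin. In DMSO it had 116 CPM in replicate 1 and 1453 CPM in replicate 2. TDH1, of the glycolysis list, had 295 and 342 CPM in rapamycin, against 535 and 4520 CPM in these DMSO libraries. Both genes had a called fall (adjusted p = 0.0118 and 0.00769), and their DMSO replicates lay further apart than rapamycin and DMSO replicate 1.

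Genes of lipid, vacuole and membrane traffic mostly fell. Of 18 subunit and assembly genes of the vacuolar ATPase, the proton pump that acidifies the vacuole, 16 fell and 0 rose (median log2 fold change -1.44). VMA5, a subunit of its peripheral sector, had 174 and 175 CPM in rapamycin, against 740 and 763 CPM in DMSO. VMA1, the catalytic subunit, had 772 and 793 CPM in rapamycin, against 2690 and 2604 CPM in DMSO. In fatty acid synthesis and desaturation 12 of 15 fell and 1 rose (median -1.30). OLE1, the fatty acid desaturase of yeast, had 280 and 320 CPM in rapamycin, against 2177 and 1802 CPM in DMSO (log2 fold change -2.73 ± 0.18, adjusted p = 9.36e-06). The gene of that list that rose was FAA2, a medium-chain acyl-CoA synthetase of the peroxisome (log2 fold change 0.75).

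Ergosterol synthesis had 20 of 25 genes lower and 1 higher (median -0.83). ERG4, the last enzyme of the pathway, had 193 and 220 CPM in rapamycin, against 771 and 599 CPM in DMSO. ERG8, phosphomevalonate kinase, rose instead, with 549 and 607 CPM in rapamycin, against 352 and 282 CPM in DMSO (log2 fold change 0.86 ± 0.16, adjusted p = 0.00162). The COPI and COPII coats, which form transport vesicles, had 13 of 16 genes lower and 0 higher (median -0.94). SAR1, the GTPase that starts COPII assembly, was 4.72-fold lower in rapamycin. In the actin and actin patch list 21 of 34 fell and 2 rose (median -0.53); actin itself, ACT1, had 410 and 323 CPM in rapamycin, against 1229 and 1116 CPM in DMSO. These medians kept their sign under both other scalings, with that of the actin list at -0.02 under total counts.

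Genes of the translation machinery fell as a body. Of 56 small-subunit ribosomal protein genes 46 fell and 0 rose (median log2 fold change -1.001), and of 79 large-subunit genes 70 fell and 2 rose (-0.95). RPS0A had 408 and 391 CPM in rapamycin, against 1581 and 1415 CPM in DMSO. RPL22B, the less used copy of a paralog pair, was among the 12 largest rises of ORFs with a symbol and a mean of 50 counts or more, with 237 and 176 CPM in rapamycin, against 51.6 and 41.6 CPM in DMSO (log2 fold change 2.14 ± 0.21, adjusted p = 4.33e-05). Elongation and termination factors had 10 of 13 lower and 0 higher (median -1.30). EFB1, which recharges elongation factor 1A with GTP, had 228 and 200 CPM in rapamycin, against 1542 and 1289 CPM in DMSO. TEF1 and TEF2, which encode that factor in identical copies, were 5.02-fold and 4.14-fold lower in rapamycin, with counts that cannot be divided safely between them. Initiation factors had 20 of 27 lower and 0 higher (-0.93), and aminoacyl-tRNA synthetases 18 of 20 lower and 0 higher (-1.03), GUS1 for glutamate by the most (log2 fold change -2.13). The medians of these lists were below 0 under both other scalings.

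Ribosome assembly genes moved less than ribosomal protein genes. Of 57 genes of the SSU processome, which shapes the small subunit, 13 fell and 4 rose (median -0.17). Of 67 factors for 60S assembly 21 fell and 2 rose (-0.24). Both medians were above 0 under total counts (0.34 and 0.27), and they were -0.08 and -0.15 without DMSO replicate 1. Without DMSO replicate 2 the 60S median was -0.37, and without rapamycin replicate 1 that of the processome was -0.11. Mitochondrial ribosomal protein genes, 75 in number, had 7 lower and 9 higher with a median of 0.05, which was -0.59 under mitochondrial scaling and -0.06 without DMSO replicate 2.

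Amino acid pathways went opposite ways. Arginine and ornithine synthesis had 9 of 10 genes higher and 0 lower, with a median log2 fold change of 0.89, and of 0.23 under mitochondrial scaling. ARG4 (YHR018C), argininosuccinate lyase, had 1069 and 1253 CPM in rapamycin, against 343 and 540 CPM in DMSO (log2 fold change 1.40 ± 0.22, adjusted p = 0.000557). ARG3, ornithine carbamoyltransferase, had 47.6 and 30.8 CPM in rapamycin, against 4.92 and 7.10 CPM in DMSO (log2 fold change 2.72 ± 0.41, adjusted p = 0.000409). ARG1, argininosuccinate synthetase, had 133 and 103 CPM in rapamycin, against 39.3 and 43.6 CPM in DMSO. The groups did not overlap for any of the 3. Branched-chain synthesis had 9 of 11 genes lower and 0 higher (median -1.16). In it ILV3, dihydroxyacid dehydratase, had 689 and 684 CPM in rapamycin and 2333 and 1836 CPM in DMSO, and LEU1, isopropylmalate isomerase, had 869 and 703 CPM in rapamycin and 3217 and 2475 CPM in DMSO.

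HIS3 (YOR202W), an enzyme of histidine synthesis, had the largest rise by the same measure, with 155 and 195 CPM in rapamycin, against 32.0 and 22.3 CPM in DMSO (log2 fold change 2.67 ± 0.21, adjusted p = 1.92e-05). The CEG1 tag carries a HIS marker, and whether its reads count as HIS3 was not tested. Of the 7 histidine genes 2 rose and 0 fell (median 0.25, and -0.42 under mitochondrial scaling, 0.07 without DMSO replicate 1 and 0.46 without DMSO replicate 2). Purine synthesis was mixed, with 5 of 21 higher and 11 lower (median -0.39, and 0.13 under total counts). ADE2 had 194 and 178 CPM in rapamycin, against 57.4 and 62.8 CPM in DMSO, while ADE3, which supplies one-carbon units, had 161 and 158 CPM in rapamycin, against 347 and 380 CPM in DMSO. IMD2 and IMD3, paralogs for the committed step to guanine nucleotides, differed in direction. IMD2 had 374 and 390 CPM in rapamycin and 134 and 128 CPM in DMSO, and IMD3 had 177 and 188 CPM in rapamycin and 535 and 448 CPM in DMSO.

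Many amino acid and purine genes are targets of Gcn4, the activator of the general amino acid control, whose site holds the letters TGACTC. The 6 promoter stretches below are shown because they hold these letters and belong to genes that moved in opposite directions. Each runs 5′ to 3′ on the coding strand from 250 to 101 bases before the start codon in R64, and capitals mark TGACTC. The genes were picked after their values were seen. The first 3 are of genes that rose: HIS3 from chrXV:721696-721845 on the + strand, ARG4 from chrVIII:141503-141652 on the - strand and ADE2 from chrXV:566292-566441 on the - strand. The last 3 are of genes that fell: ILV3 from chrX:466309-466458 on the - strand, BAT1 from chrVIII:517282-517431 on the + strand and ADE3 from chrVII:905684-905833 on the + strand.
HIS3: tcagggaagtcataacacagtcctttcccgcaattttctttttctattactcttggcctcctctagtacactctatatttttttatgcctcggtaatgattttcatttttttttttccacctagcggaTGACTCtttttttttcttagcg
ARG4: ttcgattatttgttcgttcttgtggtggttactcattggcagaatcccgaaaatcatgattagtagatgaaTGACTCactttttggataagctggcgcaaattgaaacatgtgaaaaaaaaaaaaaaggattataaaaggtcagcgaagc
ADE2: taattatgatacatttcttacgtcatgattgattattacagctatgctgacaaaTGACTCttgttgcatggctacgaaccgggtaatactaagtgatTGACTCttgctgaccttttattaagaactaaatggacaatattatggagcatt
ILV3: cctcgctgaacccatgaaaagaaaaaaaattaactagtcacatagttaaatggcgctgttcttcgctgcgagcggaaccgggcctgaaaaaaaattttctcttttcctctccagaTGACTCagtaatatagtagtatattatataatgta
BAT1: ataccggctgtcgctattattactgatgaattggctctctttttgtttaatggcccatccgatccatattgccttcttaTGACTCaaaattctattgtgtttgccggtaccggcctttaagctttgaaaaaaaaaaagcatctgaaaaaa
ADE3: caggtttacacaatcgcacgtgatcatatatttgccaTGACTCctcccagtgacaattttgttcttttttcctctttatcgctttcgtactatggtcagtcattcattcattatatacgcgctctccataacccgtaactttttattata

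The log2 fold changes of these genes were 2.67 for HIS3, 1.40 for ARG4, 1.63 for ADE2, -1.60 for ILV3, -1.12 for BAT1, which makes branched-chain amino acids in mitochondria, and -1.19 for ADE3. The letters begin 122 bases before the start in HIS3, 179 in ARG4, 196 and 153 in ADE2, 135 in ILV3, 171 in BAT1 and 213 in ADE3. None of these matches overlapped a match to another motif searched. Over windows from 250 bases before to 50 after the start, read on both strands, TGACTC was in 8.18% of 5486 promoters. Members were also compared within 6 lists by whether they hold it. Branched-chain genes with it had 0 higher and 5 lower of 6 (median log2 fold change -1.15), and those without it 0 higher and 4 lower of 5 (-1.16). Arginine genes with it had 5 higher and 0 lower of 6 (median 0.73), and those without it 4 higher and 0 lower of 4 (1.26). Purine genes with it had 2 higher and 3 lower of 9 (median -0.12), and those without it 3 higher and 8 lower of 12 (-0.46). Synthetase genes had medians of -1.03 with it and -0.997 without it, and zinc cluster genes 0.82 and 0.75. Of the 7 histidine genes 6 held it (median 0.31), and the 1 without it was at -0.33. A match is a run of letters and not a shown binding site.

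Proteasome genes fell together while the gene of their activator rose. Of 35 genes in the list of the 26S proteasome, the protease for ubiquitin-marked proteins, and RPN4, 27 fell and 1 rose (median log2 fold change -0.75). PRE1, a core subunit, had 50.5 and 65.6 CPM in rapamycin, against 193 and 172 CPM in DMSO (log2 fold change -1.66 ± 0.17, adjusted p = 6.28e-05). RPT1, a base ATPase, had 108 and 111 CPM in rapamycin, against 410 and 276 CPM in DMSO. The gene that rose was RPN4 (YDL020C), the activator, with 138 and 150 CPM in rapamycin, against 102 and 100 CPM in DMSO (log2 fold change 0.51 ± 0.15, adjusted p = 0.0161), though it was at -0.15 under mitochondrial scaling. RPN5, a lid subunit chosen after its values were seen, had 508 and 544 CPM in rapamycin, against 513 and 547 CPM in DMSO, and these groups overlapped.

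Rpn4 binds the element GGTGGCAAA, marked in capitals (TTTGCCACC where it lies on the other strand) in 3 stretches that cover the same bases before the start. PRE1 is from chrV:177585-177734, RPT1 from chrXI:173963-174112 and RPN5 from chrIV:190674-190823, all on the + strand of R64; they are shown because the first 2 genes fell and the last did not.
PRE1: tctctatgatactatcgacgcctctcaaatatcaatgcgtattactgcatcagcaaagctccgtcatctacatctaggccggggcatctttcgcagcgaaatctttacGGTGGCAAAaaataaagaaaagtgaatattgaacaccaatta
RPT1: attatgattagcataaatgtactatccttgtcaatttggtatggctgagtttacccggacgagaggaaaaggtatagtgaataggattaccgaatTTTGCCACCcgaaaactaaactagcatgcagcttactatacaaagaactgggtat
RPN5: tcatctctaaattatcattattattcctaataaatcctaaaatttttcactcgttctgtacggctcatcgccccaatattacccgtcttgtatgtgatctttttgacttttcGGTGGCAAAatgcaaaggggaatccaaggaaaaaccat

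The element was in 1.28% of 5486 promoters and in 27 of the 35 genes of the list. Of those 27 members 0 rose and 21 fell (median log2 fold change -0.75), and of the 8 without it 1 rose and 6 fell (-0.81). RPN5, which holds the letters, had a log2 fold change of -0.01, and of 0.50 under total counts.

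Of 31 antioxidant genes 16 fell and 1 rose (median -0.68). MXR1, which repairs oxidized methionine, had 6.67 and 12.9 CPM in rapamycin, against 74.6 and 117 CPM in DMSO. AHP1, a thiol peroxidase, had 18.1 and 15.9 CPM in rapamycin, against 129 and 107 CPM in DMSO (log2 fold change -2.80 ± 0.22, adjusted p = 1.92e-05). CTA1, the catalase of peroxisomes, rose, with 121 and 129 CPM in rapamycin, against 51.6 and 41.6 CPM in DMSO. Histone genes had 7 of 11 lower and 0 higher (median -1.08). HTA2, for histone H2A, had 145 and 145 CPM in rapamycin and 650 and 614 CPM in DMSO; histone gene pairs are near-identical and their counts uncertain.

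Genes of capping, cap binding and 5′ end decay had 8 of 19 lower and 2 higher, with a median log2 fold change of -0.03 that was 0.49 under total counts, 0.09 without rapamycin replicate 1 and 0.04 without DMSO replicate 1. Without rapamycin replicate 2 it was -0.16, and without DMSO replicate 2 -0.09. XRN1 had 366 and 336 CPM in rapamycin, against 651 and 641 CPM in DMSO (log2 fold change -0.88 ± 0.14, adjusted p = 0.000789). DXO1, a decapping exonuclease that acts on caps that are faulty, rose, with 126 and 128 CPM in rapamycin, against 59.8 and 65.9 CPM in DMSO (log2 fold change 1.02 ± 0.17, adjusted p = 0.000826). EDC1, an enhancer of decapping, had 31.4 and 18.9 CPM in rapamycin, against 12.3 and 8.11 CPM in DMSO. PAT1, which joins decapping factors on mRNA, had 96.2 and 106 CPM in rapamycin, against 291 and 203 CPM in DMSO. For both genes the groups did not overlap.

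Genes for the uptake of metals rose. In the iron and copper regulon 14 of 26 tested genes rose and 2 fell (median log2 fold change 0.86, and 0.19 under mitochondrial scaling). The list holds 30 genes, and tested ones could pass the filter on low counts through libraries where they are higher. FRE2, a ferric reductase, had 134 and 150 CPM in rapamycin, against 29.5 and 44.6 CPM in DMSO (log2 fold change 1.96 ± 0.21, adjusted p = 6.62e-05). FRE3, a reductase of the same family, and ARN2, a siderophore carrier, were 3.50-fold and 3.46-fold higher in rapamycin. CTR1, the high-affinity copper carrier, was lower, with 459 and 449 CPM in rapamycin, against 743 and 668 CPM in DMSO. ZRT1, the high-affinity zinc carrier, had 348 and 504 CPM in rapamycin, against 74.6 and 130 CPM in DMSO. Its activator gene ZAP1 had 55.2 and 52.7 CPM in rapamycin, against 17.2 and 21.3 CPM in DMSO. The whole zinc list was less uniform, with 5 of 16 higher and 3 lower. Its median was 0.27, and -0.425 under mitochondrial scaling and -0.01 without rapamycin replicate 1. PHO89, a sodium-phosphate carrier, had 291 and 252 CPM in rapamycin, against 73.8 and 56.8 CPM in DMSO.

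Nitrogen catabolite repression genes, which glutamine-rich media keep low, had 11 of 31 higher and 6 lower (median 0.66, and -0.03 under mitochondrial scaling). The median was 0.35 without rapamycin replicate 2, 0.43 without DMSO replicate 1, and as low as 0.05 in a single pair of libraries. GZF3, a GATA-type repressor of them, had 135 and 137 CPM in rapamycin, against 36.1 and 29.4 CPM in DMSO (log2 fold change 2.04 ± 0.18, adjusted p = 2.93e-05). DAL7, malate synthase of allantoin use, was 3.04-fold higher in rapamycin. PUT2, for proline use, went the other way, with 70.5 and 51.7 CPM in rapamycin, against 221 and 171 CPM in DMSO.

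Among regulators that are normally scarce, 30 of 44 zinc cluster transcription factors rose and 1 fell (median log2 fold change 0.81, and 0.13 under mitochondrial scaling). SIP4, an activator of gluconeogenic genes, had 62.8 and 70.6 CPM in rapamycin, against 12.3 and 19.3 CPM in DMSO (log2 fold change 2.102 ± 0.25, adjusted p = 0.000119). SMP1, a MADS-box factor outside that list, had 124 and 142 CPM in rapamycin, against 23.0 and 31.4 CPM in DMSO. Other large rises were BIO5, a carrier of biotin precursors (4.83-fold higher), YGK3, a GSK-3 family kinase (4.08-fold higher), and PML39, which keeps faulty mRNA in the nucleus (3.87-fold higher).

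Of 52 meiosis and sporulation genes that could be tested, 33 rose and 0 fell (median log2 fold change 1.21, and 0.54 under mitochondrial scaling). Haploid cells in rich medium do not sporulate and keep these genes low: their median TPM in DMSO was 5.67. ZIP2, for chromosome pairing, had 116 and 126 CPM in rapamycin, against 23.0 and 32.4 CPM in DMSO. IME2, a kinase that drives meiosis, had 47.6 and 49.7 CPM in rapamycin, against 8.196 and 10.1 CPM in DMSO (log2 fold change 2.41 ± 0.27, adjusted p = 8.22e-05). SPS1, a sporulation kinase, had 22.9 and 24.8 CPM in rapamycin, against 4.92 and 2.03 CPM in DMSO, where 3 counts correspond to 2.46 and 3.04 CPM. Of 61 genes listed, those that passed the filter on low counts could pass it through rapamycin alone, so the share of 52 is not a share of all.

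Pheromone response genes had 16 of 30 tested members higher and 0 lower, of 32 listed (median 0.75, and 0.10 under mitochondrial scaling). KAR5, for nuclear fusion in mating, had 90.5 and 91.4 CPM in rapamycin, against 24.6 and 25.3 CPM in DMSO. FUS1, for cell fusion, had 32.4 and 28.8 CPM in rapamycin, against 6.56 and 13.2 CPM in DMSO. Genes of alpha cells, the mating type of the strain, had 3 of 5 lower and 0 higher: MF(ALPHA)2 had 9.52 and 7.95 CPM in rapamycin, against 49.2 and 40.5 CPM in DMSO, and STE3, the a-factor receptor, 157 and 157 CPM in rapamycin, against 379 and 292 CPM in DMSO. Genes of a cells, which the alpha2 repressor keeps low in this mating type, had 3 of 4 tested members higher, of 7 listed. Tested members could pass the filter on low counts through libraries where they are higher, so this is not a share of all. STE2, the alpha-factor receptor, had 34.3 and 19.9 CPM in rapamycin and 9.02 and 14.2 CPM in DMSO, and STE6, the a-factor exporter, had 117 and 88.5 CPM in rapamycin and 30.3 and 51.7 CPM in DMSO. MFA1 and MFA2 were at 0 counts in all 4 libraries.

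Transcripts made inside mitochondria by another polymerase carry no cap. Of 20 tested ORFs in their list, of 28 listed, 13 were higher and 0 lower (median log2 fold change 0.63). This list is the yardstick of the mitochondrial scaling, under which its median was -0.05. COX1, a subunit of cytochrome c oxidase, had 2803 and 2582 CPM in rapamycin, against 1414 and 1320 CPM in DMSO, and COB, cytochrome b, 3402 and 2614 CPM in rapamycin, against 1629 and 1563 CPM in DMSO. The median ranged from 0.24 to 1.03 over the 4 pairs of libraries, and was 0.39 without rapamycin replicate 1. Nuclear genes of the respiratory chain and ATP synthase had 1 of 36 higher and 8 lower (median -0.24, and 0.28 under total counts). It was within 0.01 of 0 without DMSO replicate 1, -0.09 without rapamycin replicate 2, -0.52 without rapamycin replicate 1 and -0.48 without DMSO replicate 2. Kinetochore genes had 18 of 42 higher and 1 lower (median 0.58), DNA repair genes 32 of 62 higher and 7 lower (0.51), and splicing factors 23 of 65 higher and 1 lower (0.47), all of which were below 0 under mitochondrial scaling (-0.08, -0.15 and -0.19).

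**Figure D2:**
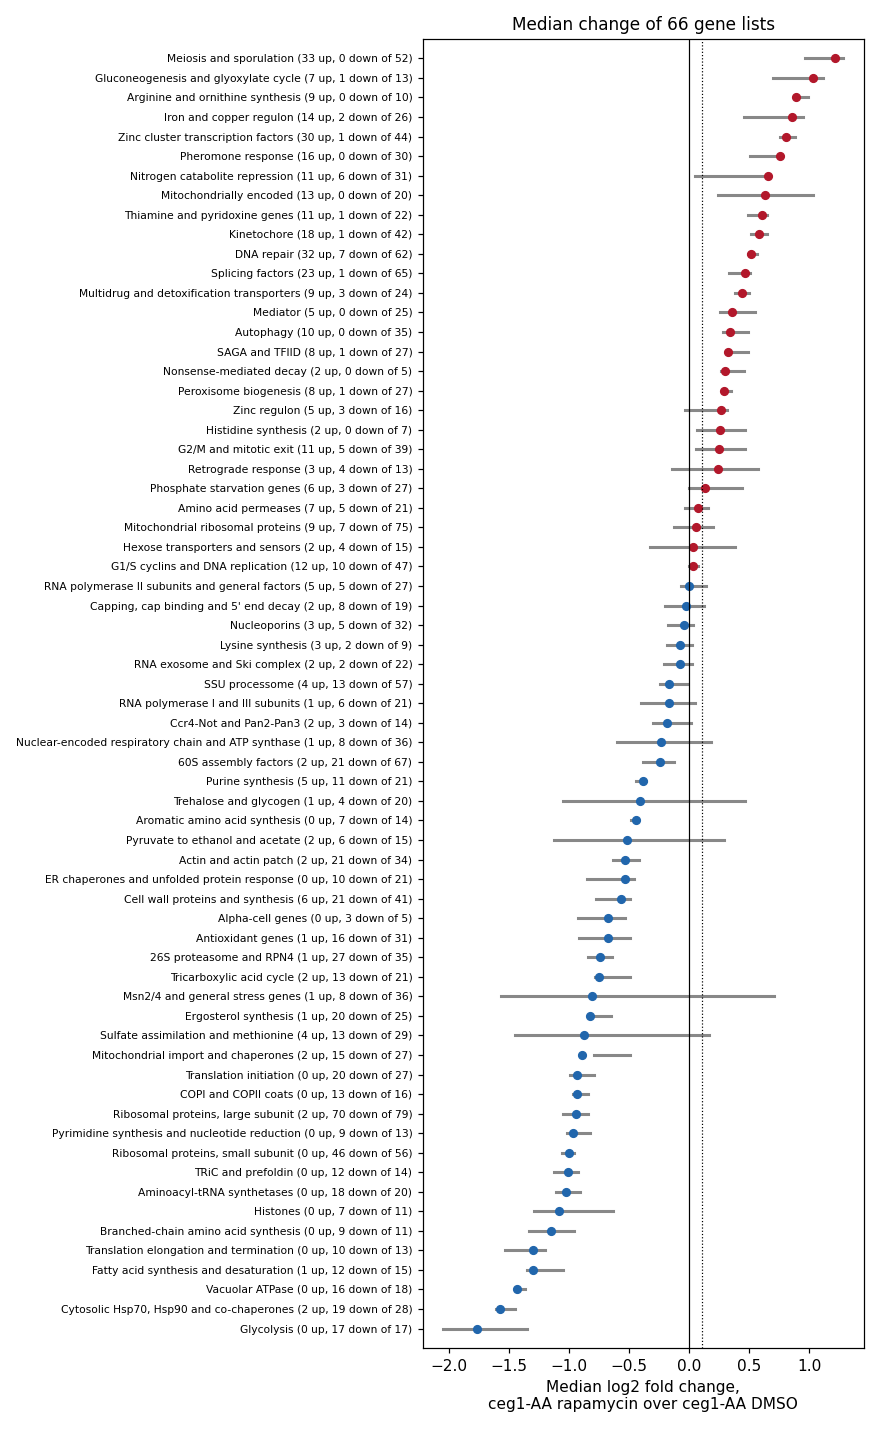
Median log2 fold change (rapamycin over DMSO) of 66 gene lists with at least 5 tested members, ordered from highest to lowest; points are fitted medians (red above 0, blue below), grey bars span the medians of the 4 single pairs of libraries, and the dotted line is the median of all ORFs (0.11). Meiosis (1.21) stands at the top and glycolysis (-1.77) at the foot. The long bars of the stress, trehalose, pyruvate and sulfate lists cross 0. So do shorter bars of other lists, such as hexose transporters (-0.325 to 0.378).

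Over the 66 lists, 28 had a median more than 0.5 below that of all ORFs and 9 more than 0.5 above it. The lists' medians followed their level: the Spearman correlation between a list's median change and its median TPM in DMSO was -0.83 over the 66 lists, which share the 4 libraries and some genes. This is given as a description. The change was therefore set against level ORF by ORF. To keep noise in a library from entering both quantities, the log2 ratio of a rapamycin to a DMSO library was compared with the TPM in the DMSO replicate that was not in the ratio, for each of the 4 pairs of libraries.

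Change followed level over the whole range. From the lowest to the highest decile of TPM, each of about 588 ORFs, the median log2 ratio was 0.73, 0.60, 0.46, 0.35, 0.34, 0.14, -0.02, -0.25, -0.57 and -1.02, as means over the 4 pairs. The SD over pairs was 0.11 in the lowest decile and 0.03 in the highest. In the highest decile, with a median of 463 TPM, 1.87% of ORFs rose and 82.7% fell. In the lowest, with a median of 5.11 TPM, 34.6% rose and 0.0% fell. That decile ran from 0.0 to 9.445 TPM, so few counts left little room to call a fall. ORFs scarce in DMSO could also pass the filter on low counts through other libraries, so the split there is no measure of level alone. The Spearman correlation of change with level was -0.56 ± 0.03 (SD over 4 choices of libraries, 5879 ORFs), and -0.55 given length. Between replicates, where no treatment differs, it was 0.10 within the DMSO pair and -0.04 within the rapamycin pair of ceg1-AA, but -0.30 within the rapamycin pair of ceg1-AA/xrn1D, replicate 1 less replicate 2. Across ORFs this is a description, since ORFs of a library share its depth and composition.

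The same gradient appears between DMSO libraries without rapamycin. Setting the ceg1-AA/xrn1D DMSO library over the ceg1-AA DMSO libraries gave a median log2 ratio of 0.74 in the lowest level decile and -0.89 in the highest. In the ceg1-AA/xrn1D strain, rapamycin over DMSO gave 0.03 in the lowest and -0.23 in the highest. The first of these comparisons shares the ceg1-AA DMSO libraries with the change described here. With the level taken from the rapamycin replicate outside the ratio, an alternative added after seeing the data, the correlation of change with level was -0.24. What part the composition of the ceg1-AA DMSO libraries has in the gradient was not tested.

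**Figure D3:**
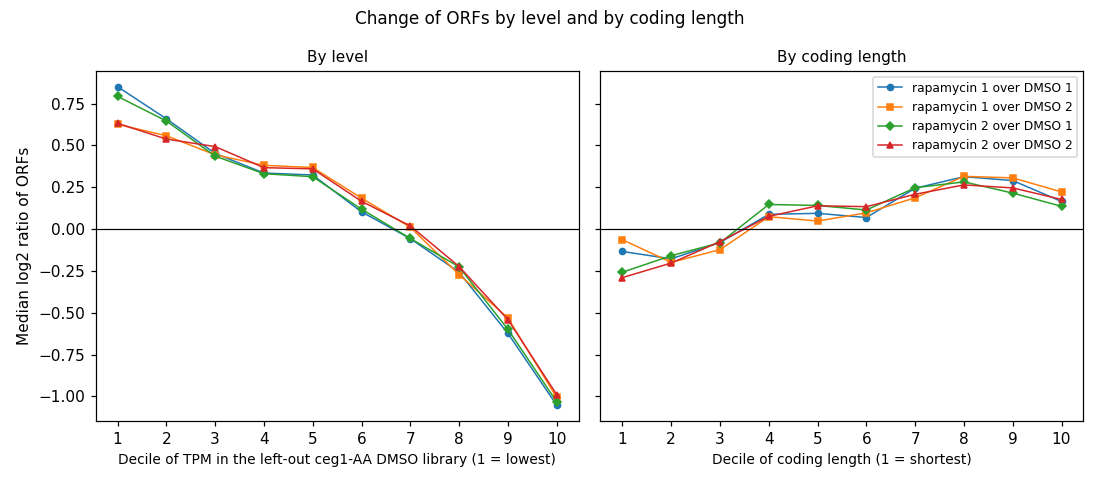
Median log2 ratio of rapamycin to DMSO for ORFs in deciles of TPM in the left-out DMSO library (left) and of coding length (right); each line is 1 of the 4 pairs of ceg1-AA libraries. The 4 lines descend together from a mean of 0.73 to -1.02 across level, and across length the means over the lines run between -0.19 and 0.29 and single lines between -0.29 and 0.32.

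Change depended less on ORF length. The length in the files is that of the coding sequence. From the shortest to the longest decile, the median log2 ratio was -0.19, -0.19, -0.09, 0.10, 0.11, 0.10, 0.22, 0.29, 0.26 and 0.18. It was highest in the eighth decile, with a median length of 1857 bases, and did not go on rising to the longest ORFs (median 3446 bases). Rises made up 6.12% of the shortest decile and 35.5% of the ninth. Falls made up 30.3% of the second and 16.0% of the ninth. Short ORFs hold fewer counts at the same TPM, so these shares also depend on how easily a change is called. The Spearman correlation with length was 0.15 (0.13 to 0.17 over the 4 pairs). Short ORFs have higher TPM (Spearman -0.12 between level and length), and given level the correlation with length was 0.10, between 0.07 and 0.12. The value given level was 0.049 among ORFs with at least 50 counts in 2 libraries, 0.15 with the level from the ceg1-AA/xrn1D DMSO library and 0.38 with level as CPM, which itself grows with length. Between replicates of ceg1-AA the value given level was 0.03 with DMSO and within 0.01 of 0 with rapamycin; between the rapamycin replicates of ceg1-AA/xrn1D it was -0.07, close in size to the lowest of the 4 pairs.

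Level and length were then crossed in 5 classes each of equal size. Within a class of level, the medians of the 5 length classes spanned 0.13 to 0.30 on the log2 scale. Within a class of length, the medians of the 5 level classes spanned 1.27 to 1.48. Inside each class of level, the correlation with length was 0.06 to 0.07. The sign of the length term thus held within each level class, and its size was several times below that of level.

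**Figure D4:**
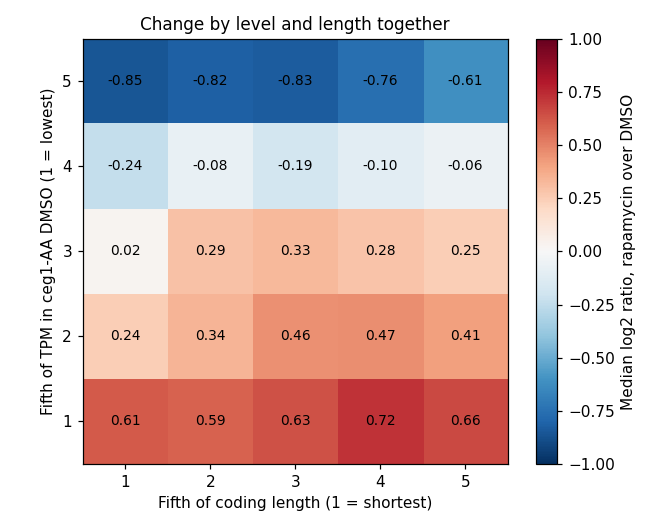
Median log2 ratio of rapamycin to DMSO (mean over the 4 pairs of ceg1-AA libraries) in a grid of 5 classes of coding length, short to long from left to right, and 5 classes of TPM in DMSO, low to high from bottom to top; red is higher and blue lower in rapamycin. Colour changes far more up the grid, by 1.27 to 1.48, than across it, by 0.13 to 0.30.

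The longest and the most abundant ORFs were taken as examples, whatever their change. REA1, the ATPase of ribosome assembly with the longest coding sequence (14733 bases), had 1743 and 1589 CPM in rapamycin, against 2038 and 1848 CPM in DMSO, and did not pass the test (adjusted p = 0.29). DYN1, the dynein heavy chain, TRA1, a subunit of histone acetyltransferases, TOM1, a ubiquitin ligase, and VPS13, a lipid transfer protein, did not pass either, with log2 fold changes of 0.22, 0.19, -0.22 and 0.16. Under total counts REA1 and TOM1 were above 0, at 0.29 and 0.30, and under mitochondrial scaling the other 3 were below 0. With limma on TPM the value for TOM1 was 0.69. At the short end RPL39 (156 bases) had 166 and 131 CPM in rapamycin, against 250 and 225 CPM in DMSO, and fell (log2 fold change -0.68 ± 0.16, adjusted p = 0.00668). RPS30B (-0.78), TMA7 (-0.71) and RPL29 (-0.47) fell as well, RPL29 with 0.05 under total counts, and RPS30A did not pass the test (-0.02, and 0.50 under total counts). RPS30A and RPS30B encode the same protein, so reads may be divided between them in an uncertain way.

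Of the 10 ORFs with the highest TPM in DMSO, 7 fell. The most abundant by this measure was YGL088W, an ORF of unknown function that overlaps SNR10, a small nucleolar RNA gene on the same strand, so that its counts are uncertain. It had 13870 and 14600 CPM in rapamycin, against 10430 and 13640 CPM in DMSO, and did not pass the test (log2 fold change 0.24 ± 0.21, adjusted p = 0.374; -0.45 under mitochondrial scaling). The glycolysis and fermentation genes among the 10 all fell: TDH3 had a log2 fold change of -2.07, ADH1 -2.08, FBA1 (aldolase) -1.77, GPM1 (phosphoglycerate mutase) -1.77 and PGK1 (phosphoglycerate kinase) -1.37. Of the 4 ribosomal protein genes RPL10 fell, at -0.997, and so did RPS31, at -0.55. RPL28, at -0.19, and RPS12, at -0.07, did not pass the test, and both were above 0 under total counts (0.32 and 0.45) and with limma on TPM. RPL28 had 4316 and 4831 CPM in rapamycin, against 5280 and 5162 CPM in DMSO. RPS12 had 3738 and 4835 CPM in rapamycin, against 4259 and 4719 CPM in DMSO, so its groups overlapped. Among these 10 ORFs the 5 of glycolysis and fermentation had lower log2 fold changes than the 4 of the ribosome.

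Each list was then set against ORFs of its own level by subtracting, for each pair of libraries, the median of the ORFs in the same level decile. The spread of ORFs narrowed only in part: the interquartile range of the log2 ratio was 1.14 to 1.21 over the 4 pairs, and 0.86 to 0.92 after the subtraction, against 0.38 between rapamycin replicates and 0.48 between DMSO replicates. In all 4 pairs 110 ORFs were at least 2-fold above their level decile and 139 at least 2-fold below. Small-subunit and large-subunit ribosomal protein genes, at a median of 1999 and 1940 TPM in DMSO, came out at -0.02 and 0.02, near their decile's median. The highest decile ran from about 224 to 29280 TPM with a median of 463 TPM, and it held many ribosomal protein genes itself. For lists well above that median, glycolysis among them (1739 TPM), the subtraction matches level only coarsely. Glycolysis stayed at -0.72 (-1.13 to -0.32 over the pairs), the cytosolic Hsp70 and Hsp90 list at -0.68, the ER chaperone list at -0.62, mitochondrial import at -0.51, and the COPI and COPII coats at -0.49. ER chaperone genes had a median of 46.4 TPM in DMSO, against 40.0 for all ORFs, though those named here, KAR2 (485 TPM) and PDI1 (158 TPM), were more abundant.

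Above their level stood the mitochondrially encoded ORFs at 1.16 (0.72 to 1.69 over the pairs), arginine synthesis at 0.85, the iron and copper regulon at 0.65 and histidine synthesis at 0.54. Purine synthesis, whose median change was below 0, came out at 0.41, and ergosterol synthesis, with 20 of 25 lower, at 0.13. Meiosis genes, at 1.21 before, came out at 0.45, and DNA repair genes, at 0.51 before, at 0.05. Gluconeogenesis genes, at 1.03 before, came out at 0.265, zinc cluster factors, at 0.81 before, at 0.35, and pheromone genes, at 0.75 before, at 0.34. Proteasome genes, at -0.75 before, came out at -0.15, histones, at -1.08 before, at -0.09, and synthetases, at -1.03 before, at -0.20. Of the 66 lists 31 were within 0.25 of their level. The genes with the largest falls stayed far below it, SSA2 at -2.71 and KAR2 at -2.04 on the log2 scale. ARG4 was at 2.21 and ERG8 at 1.44. Among ORFs that fell, 131 were above their level decile in all 4 pairs.

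**Figure D5:**
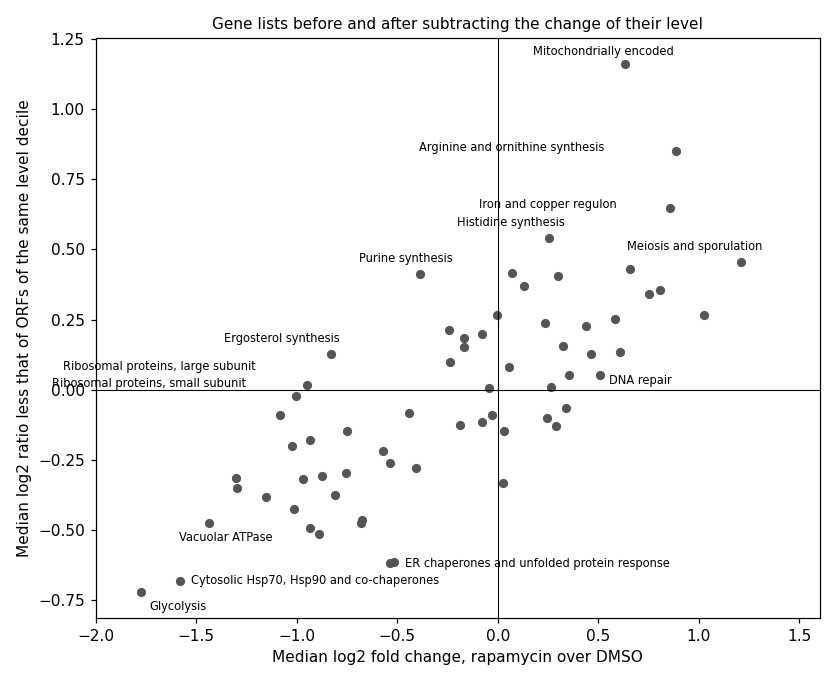
Median log2 fold change of 66 gene lists (x axis) and the median log2 ratio after subtracting that of ORFs in the same level decile (y axis); each point is a list and 14 are named. Ribosomal protein lists lie near 0 on the y axis, glycolysis at -0.72 and arginine synthesis at 0.85.

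ORFs with an intron in the coding sequence were set apart from the rest, since the cap has a part in splicing. Of 252 such ORFs 138 fell and 19 rose (median log2 fold change -0.75). Ribosomal protein genes with an intron, 89 in number, had 78 lower and 1 higher (median -1.07), and the 46 without one 38 lower and 1 higher (-0.85). Against their level they were at -0.17 and 0.10. Among other ORFs, the 163 with an intron had 60 lower and 18 higher (median -0.42), at -0.30 against their level (-0.41 to -0.25 over the 4 pairs), and the 5188 without one were at 0.01. Whether reads inside introns were counted is not given in the sources used here, and spliced and unspliced RNA were not told apart.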

How the data were processed

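Total RNA of budding yeast was sequenced; the 4 ceg1-AA libraries enter the comparison, and all 7 libraries with files share the estimate of spread. Each deposited file lists a length, a count and a TPM value for 6600 ORFs. The authors' counts are whole numbers that were not normalized, and the deposited TPM is the authors' own value per length. FastQC 0.11.5, HISAT2 2.1.1, SAMtools 1.15.1 and DESeq2 with build R64 (sacCer3) are named in the submitters' processing notes; their roles, the counting program, its use of strand and any read filter are not given in the sources used here. Overlapping, antisense and near-identical ORFs therefore have uncertain counts. Totals per library were 935651 to 1618638 counts, and 3 counts correspond to 2.46 to 3.04 CPM; this floor covers counting error only, since PCR reads are not independent molecules.

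The test was the quasi-likelihood one of edgeR 4.0.16 (R 4.3.3). There filterByExpr kept 5879 ORFs, sizes were scaled by TMM, and fits had 1 coefficient per group, with Benjamini-Hochberg adjustment over all 5879 at 0.05. The fit was also run on simulated counts in which few ORFs changed, with no trend by level. That setting is unlike these data, so no conclusion is drawn from it. Ratios of single libraries are log2 CPM with a prior count of 2. The length in the files equals the coding sequence of the R64 reference for 5908 of the 5917 ORFs found in it; names, introns and promoters come from that RefSeq reference. Function lists are described by counts and medians, with no test over a list. Replicate numbers were taken from the titles, and the check of pairing is given with the alternatives.

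The members, lists, motifs and tests were chosen with earlier results of these data known. Genes were named by a rule: the 12 largest called falls and rises with a mean count of at least 50, the same sign in all 4 pairs of libraries and a symbol; the 3 largest called members of each list and the largest in the other direction; the 10 ORFs with the highest TPM; the 5 longest and 5 shortest; and genes of capping, the strain and mating type. The alternatives were other scalings, filters and tools (DESeq2 1.42.0, limma 3.58.1 on log2 of TPM plus 1), a replicate block and leaving out each replicate.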

Additional observations from a re-analysis of the deposited data

Results flagged for a closer look

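Of 136 genes and 66 lists compared, 19 genes and 7 lists moved one way in every pair of ceg1-AA libraries and the other way in every pair of ceg1-AA/xrn1D libraries, rapamycin over DMSO. The difference between strains was not tested, because only 1 ceg1-AA/xrn1D library with DMSO was analysed here. The share over all ORFs tested was not computed, so the 19 of 136 have no background to be set against. TOM1, TRA1 and YGL088W, which are among the 19, did not pass the test in ceg1-AA. Every pair of ceg1-AA/xrn1D libraries shares the same DMSO library. Many of the values in that strain are near 0.

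Among genes that were lower with rapamycin in ceg1-AA, the mean log2 ratio was -3.01 in ceg1-AA and 0.17 in ceg1-AA/xrn1D for SSA1, -2.74 and 0.16 for STI1, and -2.29 and 1.01 for TDH1. In the same order it was -1.73 and 0.18 for COF1, the actin-severing cofilin, -2.29 and 0.085 for HYR1, a thiol peroxidase, -0.63 and 0.83 for CTR1, -0.67 and 0.56 for MF(ALPHA)1, and -0.22 and 0.12 for TOM1.

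Among genes that were higher, the mean log2 ratio was 1.59 in ceg1-AA and -0.25 in ceg1-AA/xrn1D for ADH2, 0.74 and -0.22 for FAA2, 2.12 and -0.30 for RPL22B, 1.41 and -0.29 for CTA1, and 2.08 and -0.33 for ZRT1. For the zinc cluster factors SUT1 and SEF1 the values were 1.51 and -0.81, and 1.58 and -0.37. They were 2.30 and -0.22 for IME2, 1.14 and -0.017 for STE2, 0.20 and -0.12 for TRA1, and 0.25 and -0.51 for YGL088W. Levels in DMSO can differ between strains: STE2 had 56.6 CPM in ceg1-AA/xrn1D, against 9.02 and 14.2 CPM in ceg1-AA. For MF(ALPHA)1 the gap was smaller, with 528.5 CPM against 682 and 608 CPM.

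The list medians that did so were those of the tricarboxylic acid cycle (-0.70 in ceg1-AA and 0.042 in ceg1-AA/xrn1D), antioxidant genes (-0.76 and 0.061) and actin and actin patch genes (-0.52 and 0.18). In the same order, aromatic amino acid synthesis had -0.47 and 0.13, purine synthesis -0.40 and 0.11, nonsense-mediated decay 0.33 and -0.16, and kinetochore genes 0.58 and -0.067. In ceg1-AA the fitted median of aromatic amino acid synthesis, -0.44, was 0.075 under total counts. That of nonsense-mediated decay, 0.30 over 5 tested genes, was -0.35 under mitochondrial scaling.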

How the results depend on the processing

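The count of ORFs higher in rapamycin was 2909 with total counts, 150 with mitochondrial scaling, 852 with DESeq2, 3225 with limma on TPM, and 910 to 1378 without one replicate. The count lower was 649, 2301 and 576 with total counts, mitochondrial scaling and limma on TPM, and 979 to 1347 without one replicate. Replicate numbers do not pair the libraries (Pearson correlation of replicate differences 0.131, -0.027 and -0.149 between groups); with a replicate block 1338 ORFs were higher and 1293 lower.

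The correlation of change with level, -0.56 as reported, was -0.433 with CPM in place of TPM, -0.428 with the level from the ceg1-AA/xrn1D DMSO library, -0.59 with ORFs of at least 50 counts, and -0.241 with the level from the left-out rapamycin replicate. That with length (0.15) was 0.192 with at least 50 counts and 0.118 without ribosomal protein genes. That with length given level (0.10) was 0.379 with CPM, 0.15 with the ceg1-AA/xrn1D DMSO level, 0.049 with at least 50 counts and 0.142 with the left-out rapamycin level. CPM itself rises with length.

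Less the median of all ORFs, the sulfate and methionine list was between -1.546 (without DMSO replicate 1) and 0.051 (without DMSO replicate 2), and that of G1/S cyclins and DNA replication between -0.133 (without DMSO replicate 2) and 0.017 (without DMSO replicate 1); 921 of 990 list medians under alternatives moved by less than the spread between pairs. The sign of a single gene turned in 33 of 2036 cases, in 22 of them with no call on either side. The other 11 were RPN4 at -0.15 with mitochondrial scaling; RPN5, RPL29, RPS30A and RPS12 at 0.50, 0.05, 0.50 and 0.45 with total counts; and RPN5, TOM1, RPL29, RPS30A, RPL28 and RPS12 at 0.60, 0.69, 0.048, 0.50, 0.35 and 0.47 with limma on TPM. The cause was not tested. With 2 libraries a group and 3 counts at 2.46 to 3.04 CPM, small changes of scarce ORFs were not detectable.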
